A study of Macaca mulatta with 5 samples.

Results

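The genes described here are the 4 LEF/TCF transcription factors, LEF1, TCF7, TCF7L1 and TCF7L2, and CTNNB1, which encodes beta-catenin. They were chosen by gene name. All 5 were found among the 16970 genes of the deposited table, 4 by their symbol and CTNNB1 through its RefSeq peptide. All 5 had at least 20 reads in at least 1 library, the minimum for being tested, as had 12212 genes in all.

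RNA was sequenced from rhesus macaque (Macaca mulatta) neural cells derived from embryonic stem cells, in 5 libraries. Neuroepithelial stem cells (NESCs), the early dividing cells that build the neural tube, gave a library each from passages 5, 24 and 36 (P5, P24 and P36). They were grown in Neurobasal medium with B27 and N2 supplements, 3 µM CHIR99021, 5 µM SB431542, human LIF at 1000 U/ml and bFGF at 10 ng/ml. CHIR99021 inhibits the kinase GSK3, and SB431542 inhibits activin and TGF-beta receptors. Radial glial progenitor cells (RPGCs) came from passage 36 once CHIR99021 had been left out of that medium for 7 days. Neurons came from passage 36 after 13 days on 5 µg/ml laminin and 0.05% gelatin in Neurobasal with N2 and B27, a medium for which no CHIR99021, SB431542, bFGF or LIF is listed. Loss of CHIR99021 and loss of the other 3 agents therefore cannot be told apart in the neurons. RPGCs and neurons had 1 library each, and no source used here says whether the NESC libraries came from separate cultures or lines. Their p-values measure only the spread between the 3 NESC passages, which may be technical.

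In WNT signalling, beta-catenin is normally bound by a destruction complex of APC, AXIN, casein kinase 1 and GSK3, is phosphorylated there and degraded. When WNT ligands or a GSK3 inhibitor stop this, beta-catenin accumulates, enters the nucleus and binds LEF/TCF proteins, which hold DNA through an HMG box. Without beta-catenin the same LEF/TCF proteins recruit TLE corepressors, so the family can switch target genes on or off. LEF1 and TCF7 are mostly known as activators and are themselves WNT targets, TCF7L1 is mostly known as a repressor, and TCF7L2 can act in both ways. In the developing neural tube the pathway is known for dorsal patterning and for keeping progenitors dividing. The transcript level of CTNNB1 does not report the amount of nuclear protein, which was not measured.

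The libraries held 5403437 to 7899991 reads each. Summed over the 5 NESC markers (SOX2, PAX6, NES, LIN28A and HES5), all of them above 0 in every library, the level was 801 to 1143 FPKM in NESCs, 1068 in RPGCs and 306.5 in neurons. FPKM are fragments per kilobase of transcript, scaled to library size, a level that can be compared between genes. The 6 neuronal markers summed to 317 to 496 FPKM in NESCs, 810 in RPGCs and 4071 in neurons, with ELAVL4 at 0 in P36 NESCs. The 6 radial glial markers summed to 1531 FPKM at P5, 1024 at P24 and 219 at P36, to 1298 in RPGCs and to 939 in neurons. Most of each sum was FABP7. RPGCs thus lay above P36, the passage they came from, and above P24, but below P5. The summed level did not set them apart from all NESC libraries. SOX9 was at 2.19 to 4.85 FPKM in NESCs, 41.2 in RPGCs and 31.2 in neurons, while GFAP had 2 reads and TNC was at 0 in RPGCs. The mesenchymal markers (5 of 5 in the table) summed to 60.9 FPKM at P5, mainly COL3A1 and LUM, against 16.7 at P24, 4.75 at P36, 6.89 in RPGCs and 11.7 in neurons. SOX10, a neural crest marker, had at most 2 reads in any library and was at 0 in RPGCs. Endothelial and blood, oligodendrocyte and microglial markers stayed under 1 FPKM in sum in every library. The astrocyte markers summed to 0.424 to 1.44 FPKM in NESCs, 1.09 in RPGCs and 2.11 in neurons. The pluripotency factor POU5F1 was at most 0.304 FPKM. What these differences in markers contribute to the results below was not tested, and in bulk RNA fewer cells of a type and less RNA per cell cannot be told apart.

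LEF1 (ENSMMUG00000023256, chromosome 5, 100975189 to 101096845, genome build not given in the sources used here) was present in every NESC library and close to absent from both libraries made without CHIR99021. It stood at 13.0 FPKM at P5, 20.4 at P24 and 21.3 at P36, at 0.144 FPKM in RPGCs and at 0.0788 FPKM in neurons. These values rest on 203, 264 and 386 reads in NESCs, 2 reads in RPGCs (exact 95% Poisson interval 0.242 to 7.22 reads) and 1 read in neurons (0.0253 to 5.57 reads). Intervals on reads cover counting error only. No library without CHIR99021 came near the NESC range, while P24 and P36 lay within counting error of each other.

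TCF7L1 (ENSMMUG00000020134, chromosome 13, 85693160 to 85873141), the mainly repressing member, was highest in RPGCs. It stood at 18.9, 18.5 and 15.9 FPKM in NESCs at P5, P24 and P36, at 56.3 FPKM in RPGCs and at 12.05 FPKM in neurons, from 213, 190, 229, 630 and 116 reads. The NESC values were tight (17.8 ± 1.61 FPKM, SD, n = 3), RPGCs lay far above them and neurons just below the lowest.

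TCF7L2 (ENSMMUG00000022799, chromosome 9, 112623743 to 112828945), known in mouse for its high level in thalamic neurons, followed the same order. It stood at 15.8, 28.9 and 20.8 FPKM in NESCs, at 38.1 in RPGCs and at 6.52 in neurons, from 211, 297, 347, 481 and 81 reads. Relative to its mean, this member spread most among the 5 across NESC libraries (21.8 ± 6.64 FPKM, SD, n = 3, a coefficient of variation of 30.4%), and P24 came closest to RPGCs. Of the 5 listed thalamic and midbrain markers 4 were in the table. They summed to 16.8 FPKM in neurons, against 18.6 to 49.97 in NESCs and 34.3 in RPGCs. Most of each sum was GBX2, at 13.15 FPKM in neurons. GBX2 and EN1 were lowest in neurons, LMX1B was highest there (2.56 FPKM, 10 reads) and LHX9 had at most 2 reads. How these markers relate to TCF7L2 was not tested.

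TCF7 (ENSMMUG00000022788, chromosome 6, 130543729 to 130552664), best known from T cells, was the lowest of the 5 genes in NESCs. It stood at 5.89, 5.67 and 4.75 FPKM in NESCs, at 9.40 in RPGCs and at 0.679 in neurons, from only 33, 31, 38, 50 and 4 reads. RPGCs lay above all NESC libraries and neurons below them, but P36 NESCs and RPGCs were only 1.69-fold apart in reads per total (95% interval 1.08 to 2.64). The deposited gene spans 8936 bases, and FPKM per read differed up to 1.33-fold between libraries for this gene, against 1.04-fold for LEF1.

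CTNNB1 (ENSMMUG00000014627, chromosome 2, 95296607 to 95337622) was abundant in every library, above 94.4% to 96.7% of the tested genes. It stood at 204, 302 and 259 FPKM in NESCs, at 325 in RPGCs and at 248 in neurons, from 3751, 4540, 5425, 5483 and 3829 reads. Neurons lay inside the NESC range and RPGCs just above P24. None of the 5 loci overlapped another gene of the table.

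**Figure D1:**
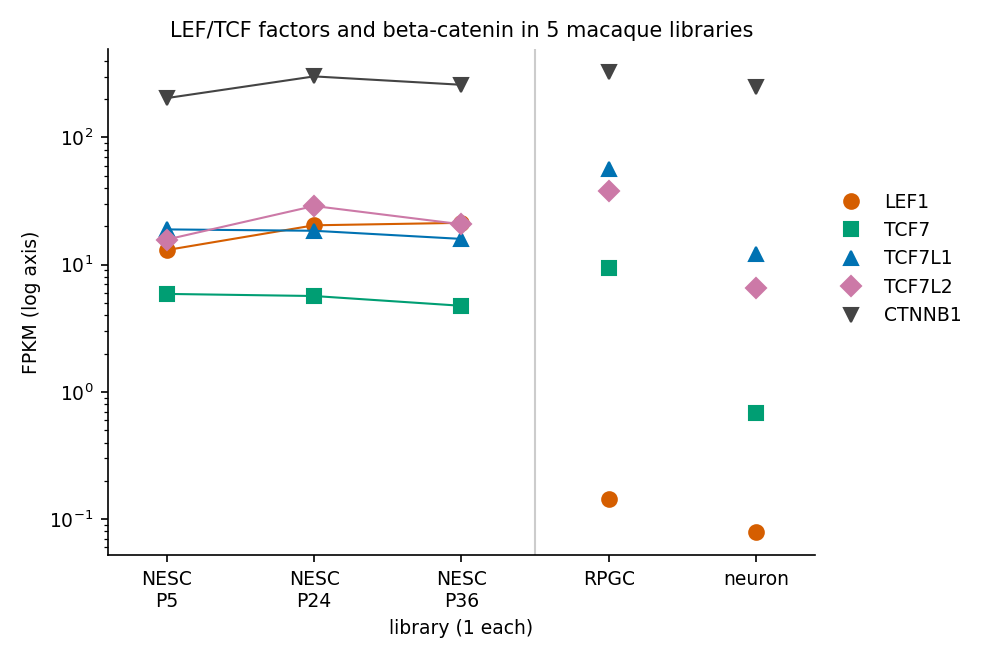
FPKM (log axis) of the 5 genes in each of the 5 libraries; 1 point is 1 library, and lines join the 3 NESC passages. LEF1 lies at 13.0 to 21.3 FPKM in NESCs, at 0.144 in RPGCs and at 0.0788 in neurons, while CTNNB1 stays between 204 and 325 FPKM.

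The make-up of LEF/TCF transcripts differed between the cell states. In NESCs no factor dominated: LEF1 held 28.7% ± 4.89 of the summed FPKM of the 4 factors, TCF7L1 28.6% ± 5.80, TCF7L2 34.0% ± 5.04 and TCF7 8.76% ± 1.93 (SD, n = 3). In RPGCs TCF7L1 held 54.2% and TCF7L2 36.6%, while LEF1 held 0.139%. In neurons the shares were 62.3% for TCF7L1, 33.8% for TCF7L2, 3.51% for TCF7 and 0.408% for LEF1. The TCF7L2 share of RPGCs and neurons lay within 1 SD of the NESC mean, and the TCF7L1 share lay above all NESC libraries in both.

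The summed level of the factors was highest in RPGCs and lowest in neurons. The 4 factors summed to 53.6, 73.4 and 62.8 FPKM in NESCs, to 104 in RPGCs and to 19.3 in neurons. RPGCs thus carried more LEF/TCF transcript than any NESC library, with almost no LEF1 in it, and neurons less than any. CTNNB1 was 3.8, 4.11 and 4.13 times the summed factors in NESCs, 3.13 times in RPGCs and 12.8 times in neurons. LEF1 was 0.688, 1.10 and 1.34 times TCF7L1 at P5, P24 and P36. In RPGCs TCF7L1 was 390 times LEF1, a ratio that rests on 2 reads of LEF1.

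**Figure D2:**
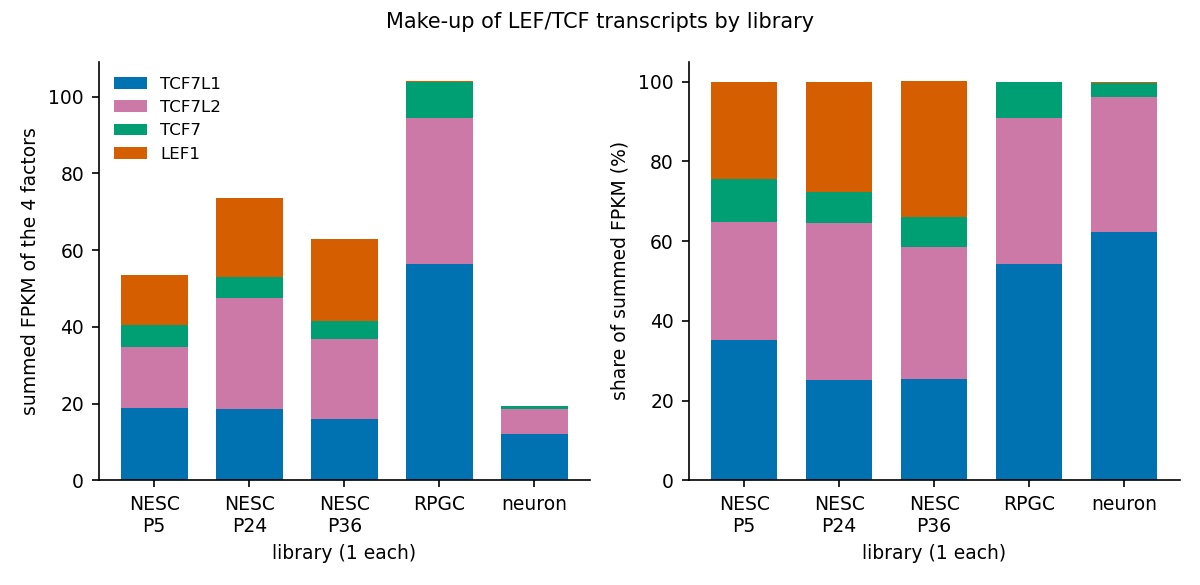
Summed FPKM of the 4 LEF/TCF factors (left) and the share of each in that sum in percent (right), by library, 1 library per bar. TCF7L1 makes up 54.2% of the sum in RPGCs and 62.3% in neurons, and LEF1 24.3% to 34.0% in NESCs.

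RPGCs were compared with NESCs to see how the 5 genes stood after CHIR99021 was left out. LEF1 was lower in RPGCs than in every NESC library and the 4 other genes were higher than in every NESC library. Among these 4 the largest difference was that of TCF7L1, 3.06-fold from the limma estimate on log2(FPKM + 1) against the NESC mean. On log2(FPKM + 1), with limma over all 12212 genes, LEF1 differed by −4.04 ± 0.40 (SE, adjusted p = 0.292), and only 4 genes had a lower value. This scale understates the difference of a gene near 0: in reads per total, P36 NESCs had 151 times the LEF1 of RPGCs (95% interval 41.4 to 1250). TCF7L1 differed by 1.61 ± 0.24 (adjusted p = 0.292), ranking 153 from the top, and by 3.52-fold in reads against P36 (3.03 to 4.12).

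For the other factors the differences were smaller. TCF7L2 differed by 0.82 ± 0.38, TCF7 by 0.70 ± 0.31 and CTNNB1 by 0.37 ± 0.26, with limma adjusted p = 0.402 to 0.557. The median over all tested genes was 0.11, which median-of-ratios scaling brought to 0.01. No sign changed for any of the 5 under the alternatives tried. Of all tested genes 39.1% lay above every NESC library in RPGCs and 24.5% below, so a place outside the NESC range is common.

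None of the 5 genes passed the limma threshold of an adjusted p of 0.05, nor did any gene: 0 of 12212 were called (0%), with 1706 at an unadjusted p under 0.05. The edgeR quasi-likelihood test on recovered reads also called 0% (LEF1 adjusted p = 0.196, TCF7L1 0.210). DESeq2 on the same reads called 280 genes (2.99% of those with an adjusted p, 1.42% higher and 1.57% lower), and 2 of them were of the 5: LEF1 (log2 fold change −7.13, adjusted p = 4.93e-07) and TCF7L1 (1.59, adjusted p = 0.00291).

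Neurons were compared with NESCs to describe differentiation. LEF1, TCF7 and TCF7L2 fell, TCF7L1 was somewhat lower without passing the test, and CTNNB1 was level. LEF1 fell by 4.13 on the log2(FPKM + 1) scale (SE 0.40, limma adjusted p = 0.00503). TCF7 fell by 1.93 (SE 0.31, adjusted p = 0.0115) and TCF7L2 fell by 1.56 (SE 0.38, adjusted p = 0.0329). TCF7L1 differed by −0.52 ± 0.24 (adjusted p = 0.139). The CTNNB1 difference was −0.02 ± 0.26 (95% interval −0.70 to 0.67), and its sign turned under both other scalings and in the count tests.

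These 3 of the 5 genes stand against a background of 39.7% of all tested genes called (20.5% lower and 19.2% higher), so being called lower is common in this comparison. Of all tested genes 42.4% lay below every NESC library in neurons. Within passage 36, reads per total were 264 times higher in NESCs than in neurons for LEF1 (95% interval 47.1 to 10500, from 1 read in neurons), 6.50 times for TCF7 (2.34 to 25.1) and 2.93 times for TCF7L2 (2.29 to 3.78). For TCF7L1 the ratio was 1.35 (1.08 to 1.70), and for CTNNB1 it was 0.969 (0.930 to 1.01). TCF7L2 did not pass without P24 (adjusted p = 0.0689) or without P36 (0.0596), and TCF7 did not pass without P24 (0.0539). The NESC markers were also lower in neurons, as given above, and their part in the fall was not tested.

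Neurons and RPGCs were compared because both lack CHIR99021. TCF7, TCF7L1 and TCF7L2 were lower in neurons than in RPGCs, and CTNNB1 did not pass the test. TCF7 fell by 2.63 (SE 0.38, limma adjusted p = 0.0229), TCF7L2 fell by 2.38 (SE 0.47, adjusted p = 0.0387) and TCF7L1 fell by 2.14 (SE 0.29, adjusted p = 0.0207). CTNNB1 differed by −0.39 ± 0.32 (adjusted p = 0.446). LEF1, at 1 and 2 reads, could not be compared at this depth. In reads per total RPGCs had 4.76 times the TCF7L1 of neurons (95% interval 3.9 to 5.85), 5.20 times the TCF7L2 (4.11 to 6.67) and 11 times the TCF7 (4.02 to 41.8).

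The background was 15.1% of genes called, 8.94% lower and 6.21% higher. Neither group has a replicate, so the spread is again that of the NESC passages, and without P24 none of the 3 passed (limma adjusted p = 0.0787 to 0.0843). TCF7L2 did not pass without P36 either (adjusted p = 0.0588). This comparison and those with NESCs share libraries, so their results are not independent of each other. The order RPGCs above and neurons below every NESC library, shown by all 3 TCF7 genes, held for 8.98% of tested genes. LEF1 shared with 18.6% of tested genes that both RPGCs and neurons lay below every NESC library. Only 12 tested genes (0.0983%) were at least 10 times higher in every NESC library than in both others, and 2 of these, LEF1 and the vascular ligand gene ANGPT1, had 200 or more reads in an NESC library. Both limits, of 10 times and of 200 reads, were chosen after the LEF1 values were seen. The gene CSTA met the limit of 10 times but had at most 66 reads in any library.

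**Figure D3:**
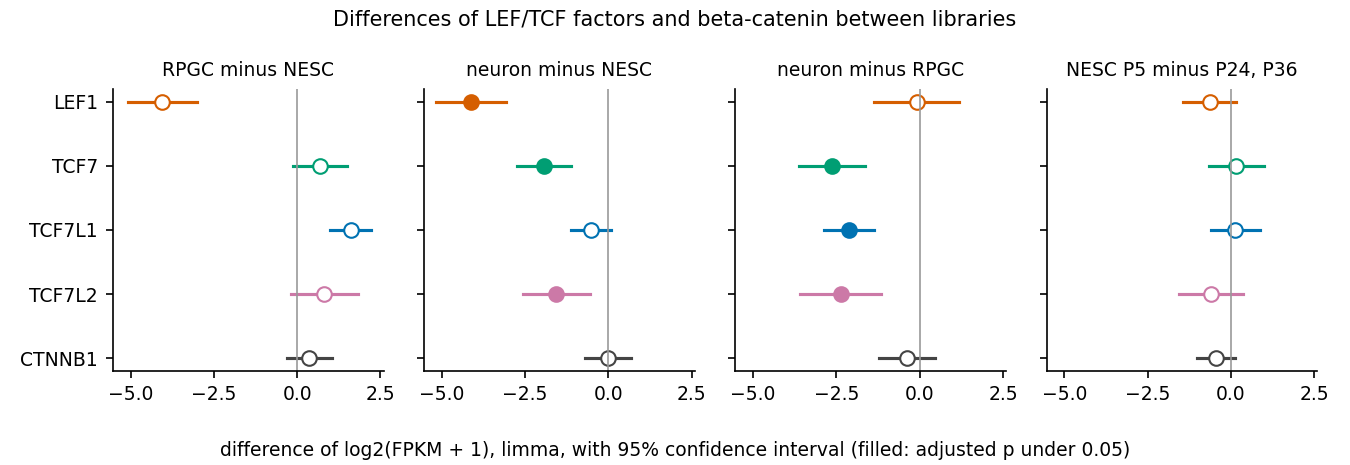
Differences of log2(FPKM + 1) for the 5 genes in 4 comparisons, as limma estimates with 95% confidence intervals; filled points have an adjusted p under 0.05. LEF1 stands at −4.04 in RPGCs and −4.13 in neurons against NESCs, and the 3 TCF7 genes are filled between neurons and RPGCs.

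Between NESC passages none of the 5 genes passed the test. P5 was compared with P24 and P36, and limma called none of the 5 and 0% of all genes (1232 at an unadjusted p under 0.05, 32 or 0.262% called by edgeR and 136 or 1.11% by DESeq2, none of them among the 5). LEF1 was lower at P5 by a difference of −0.64 ± 0.27 (adjusted p = 0.568), TCF7L2 by −0.61 ± 0.32 and CTNNB1 by −0.46 ± 0.19. The TCF7L1 difference was 0.13 ± 0.25 and that of TCF7 0.15 ± 0.28, whose sign turned in the count tests. In reads per total, LEF1 was 1.64 times higher at P36 than at P5 (95% interval 1.38 to 1.95) and 1.04 times higher at P36 than at P24 (0.887 to 1.22). Those intervals compare single libraries, not passages, and P5 was also the library with the most mesenchymal marker signal.

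Genes whose profile over the 5 libraries was most like each member were ranked by the root mean square difference of centred log2(FPKM + 1), over 11285 named genes. Nearest to LEF1 came CSTA (0.416), a protease inhibitor with at most 66 reads in any library, and CRABP2 (0.427), which carries retinoic acid. ANGPT1 (0.695), the neuropeptide precursor VGF (0.780) and the immediate early gene EGR1 (0.840) followed. CRABP2 stood at 413, 809 and 853 FPKM in NESCs, 77.6 in RPGCs and 56.6 in neurons, a smaller ratio from a far higher level. LEF1 had no match as close as those of the other members, each of which had a gene at 0.124 or less.

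TCF7 was nearest to the matrix protease gene MMP11 (0.0700), then SYNJ2, LCAT, SHROOM4 and C10ORF47. TCF7L1 was nearest to PDE5A (0.0844), a cyclic GMP phosphodiesterase, at 16.2, 15.4 and 12.1 FPKM in NESCs, 41.2 in RPGCs and 9.87 in neurons, followed by NT5DC1, the laminin chain LAMB2, ADAMTS14 and PREX1. TCF7L2 was nearest to the heparan sulfate proteoglycan SDC2 (0.124), then ADAMTSL4, CMTM3, the TGF-beta mediator SMAD3 and CECR2. Among the genes nearest to CTNNB1 were DGCR8 (0.056), which works in microRNA processing, HIF1AN, SNRNP35 and CCNYL1. Pearson's r of the pairs named ran from 0.939 to 0.998 over 5 libraries that share their groups, which describes likeness and tests nothing.

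Of the genes known as LEF/TCF targets in some tissue, 5 fell in neurons and none passed the test in RPGCs. Of 25 listed genes 21 were in the table and 13 were tested, so the 8 untested ones, such as SP5 (4 reads in each NESC library and 0 in RPGCs and neurons) and MSX1, gave no test. In RPGCs 0 of the 13 passed by limma or edgeR. DESeq2 called 2 lower, NKD1 and APCDD1, against 1.57% of all genes with an adjusted p. The median log2 difference was −0.48, against 0.11 for all genes, with 4 above 0 and 9 below. NKD1, which dampens WNT signalling at Dishevelled, had 13.2, 5.71 and 13.9 FPKM in NESCs against 0.717 in RPGCs (−2.71 ± 0.56, limma adjusted p = 0.292). APCDD1 had 64.8, 107 and 90.9 FPKM against 30.5 (−1.46 ± 0.32, limma adjusted p = 0.292). NEUROG1, which drives neuron formation, had 4.68, 3.59 and 0.440 FPKM against 18.0 (2.503 ± 0.85, from at most 32 reads), and SP8 at 17.2, 17.4 and 14.4 FPKM against 59.1 (1.80 ± 0.24).

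In neurons 5 of the 13 targets fell, 0 rose, and the median was −1.41. Of all tested genes 20.5% were called lower and 19.2% higher in neurons. APCDD1, an inhibitor of WNT receptors, fell from 64.8, 107 and 90.9 FPKM to 4.34 (−4.02 ± 0.32, limma adjusted p = 0.00434). LGR5, a receptor for R-spondins, fell from 53.6, 54.2 and 16.2 FPKM to 1.78 (−3.75 ± 0.76, adjusted p = 0.0201). CCND1, cyclin D1, fell from 161, 361 and 204 FPKM to 37.6 (−2.57 ± 0.47, adjusted p = 0.0158). TNFRSF19 (−1.64 ± 0.47) and ZNRF3 (−1.41 ± 0.33), which removes WNT receptors, fell as well. Without P24 2 of the 13 passed, 1 with no filter or a filter of 1 FPKM, and 3 with 5 FPKM. Between neurons and RPGCs, APCDD1 and SP8 were the targets called lower (−2.56 ± 0.40 and −1.35 ± 0.29). Of all tested genes 8.94% were called lower there. Neither target was called without P24, with no filter, or with a filter of 1 or 5 FPKM. SP8 (limma adjusted p = 0.0453) was also not called by edgeR or DESeq2, or with a pseudocount of 0.1. Nor was SP8 called with median-of-ratios scaling, without the trend form of limma, or without P5 or P36. NKD1 went the other way, with 3.12 FPKM in neurons above the 0.717 of RPGCs.

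Genes of the destruction complex and its regulators did not pass the test in RPGCs, and 7 of 16 rose in neurons. Of 16 listed and tested genes, AXIN2 being counted here and among the targets, 0 passed in RPGCs by limma or edgeR and 1 was called higher by DESeq2. The median was 0.07 (all genes 0.11), and turned to −0.03 with median-of-ratios scaling. In neurons 7 rose and 0 fell, with a median of 0.59 against −0.02 for all genes, of which 19.2% were called higher and 20.5% lower. DVL2 was called lower by edgeR with TMM but not RLE scaling, and DVL2 and AXIN2 by DESeq2 and with quantile normalization. APC2 rose from 5.18, 4.83 and 7.63 FPKM to 121 (4.17 ± 0.33, limma adjusted p = 0.00434), with 23.6 FPKM in RPGCs. APC, the scaffold of the complex, rose from 11.2, 11.6 and 14.8 FPKM to 56.6 (2.10 ± 0.27), and BTRC, which ubiquitinates phosphorylated beta-catenin, from 19.0, 17.9 and 28.6 FPKM to 91.2 (2.04 ± 0.32). AXIN2, induced by WNT signalling, went the other way, at 38.9, 27.8 and 85.1 FPKM in NESCs against 19.3 in RPGCs and 11.8 in neurons (−1.19 ± 0.63 and −1.86 ± 0.63, neither past the limma test, though the second passed without P36). GSK3B, a target of CHIR99021, was among the 7, rising from 48.2, 41.3 and 51.2 FPKM to 80.8 in neurons (0.78 ± 0.20, limma adjusted p = 0.0378). RPGCs had 51.6 FPKM of it. The GSK3B call was lost when P5, P24 or P36 was left out. It was also lost with no filter, with a filter of 1 or 5 FPKM, and without the trend form of limma. The largest differences in RPGCs were those of APC2 (1.86 ± 0.33), AXIN2 and DVL3 (1.01 ± 0.20). Neurons were above RPGCs for APC2 (2.31 ± 0.41, limma adjusted p = 0.0311), TNKS, which marks AXIN for degradation (1.12 ± 0.23, adjusted p = 0.0401), and APC (1.48 ± 0.33, adjusted p = 0.0492). Of all tested genes 6.21% were called higher in neurons than in RPGCs. Without P24, or with a filter of 5 FPKM, none of APC2, TNKS and APC was called above RPGCs. Of these 3, only TNKS was called with no filter or a filter of 1 FPKM, and only APC2 without P5, without P36 or without the trend form of limma. APC was also not called with a pseudocount of 0.1 or 0.5. Against NESCs, 4 of the 16 passed in neurons without P24.

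Of the nuclear cofactors of LEF/TCF factors and beta-catenin, 8 rose and 1 fell in neurons. Of 21 listed genes 19 were tested. TLE2 had at most 7 reads and CTNNBIP1 at most 9, although the latter is given as up to 1061 FPKM. In RPGCs 0 of 19 passed by limma or edgeR and 1 was called higher by DESeq2, with a median of 0.48 (all genes 0.11) and 18 of 19 above 0. With median-of-ratios scaling the median was 0.38 (all genes 0.01), again with 18 above 0. By edgeR or DESeq2, or with quantile normalization, 17 of 19 were above 0. The largest differences in RPGCs were those of HBP1 (1.73 ± 0.48), a repressor of WNT targets, TNIK (1.48 ± 0.37) and BCL9L (1.16 ± 0.32). In neurons the median was 1.03, and 19.2% of all tested genes were called higher and 20.5% lower. Without P24 3 cofactors rose and 1 fell, and with no filter or a filter of 1 or 5 FPKM 4 rose and 1 fell. TNIK, a kinase that binds TCF7L2, rose from 5.73, 3.24 and 4.03 FPKM to 54.9 (3.42 ± 0.37, limma adjusted p = 0.00567). BCL9L, which links beta-catenin to PYGO proteins, rose from 1.33, 1.73 and 1.90 FPKM to 16.9 (2.76 ± 0.32). AES, a short member of the TLE family, rose from 63.4, 63.7 and 47.4 FPKM to 235 (2.01 ± 0.24). PARP1 fell from 167, 148 and 174 FPKM to 57.1 (−1.49 ± 0.18), and was also lower than in RPGCs (−1.73 ± 0.21, limma adjusted p = 0.0190). Against RPGCs 8.94% of all tested genes were called lower in neurons, and PARP1 was not called without P24.

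Partners of beta-catenin at cell junctions were tested for 8 of 9 listed genes. In RPGCs 0 passed by limma or edgeR, 1 was called higher by DESeq2, and the median was 0.50. CDH4 (1.90 ± 0.44), CTNND2 (1.56 ± 0.29) and JUP (1.43 ± 0.44) differed most. In neurons 4 rose and 1 fell (median 0.95), against 19.2% of all tested genes called higher and 20.5% lower. None passed without P24, and 1 rose with no filter and 2 with a filter of 1 or 5 FPKM. CTNNA2, the neural alpha-catenin, rose to 53.7 FPKM from 4.39, 0.382 and 0.0509 (4.78 ± 0.99, limma adjusted p = 0.0212), while CTNNA1, the epithelial alpha-catenin, fell from 246, 238 and 195 FPKM to 88.8 (−1.33 ± 0.20, adjusted p = 0.0104). CDH4 (2.56 ± 0.44), JUP, the close relative of beta-catenin (1.98 ± 0.44), and CTNND1 (0.97 ± 0.18) rose too. CDH2, the N-cadherin of neural progenitors, stood at 210, 231 and 249 FPKM in NESCs, 252 in RPGCs and 209 in neurons, and like CTNNB1 did not pass in any comparison. Between neurons and RPGCs CTNNA1 was called lower (−1.89 ± 0.25), against 8.94% of all tested genes, but it was not called without P24.

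Between passages no gene of any list passed by limma, except PAX3 with quantile normalization. PAX3 was also called lower at P5 by edgeR and DESeq2, and TLE4 by DESeq2. The largest difference was that of PAX3, a dorsal neural factor, at 1.37 FPKM at P5 against 35.6 at P24 and 50.4 at P36 (−4.19 ± 0.34, limma adjusted p = 0.166). CTNNA2 was higher at P5 (2.16 ± 0.29, adjusted p = 0.257), and TLE4, a corepressor, was at 22.3, 44.0 and 92.9 FPKM (−1.48 ± 0.52, adjusted p = 0.505).

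**Figure D4:**
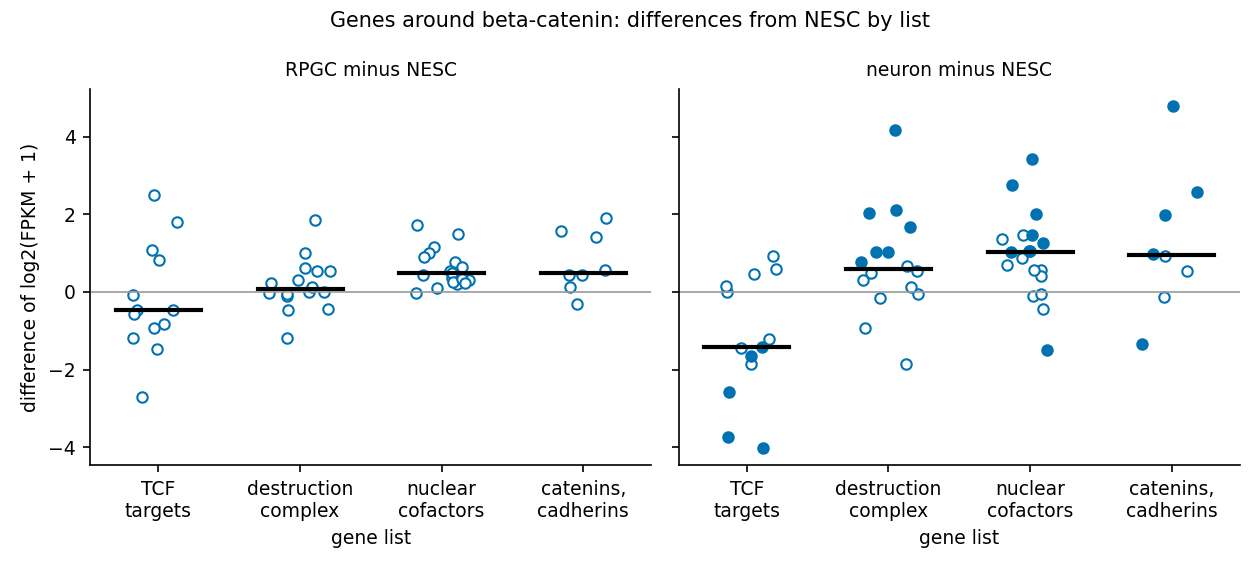
Difference of log2(FPKM + 1) from NESCs in RPGCs (left) and neurons (right) for the tested genes of 4 lists; each point is 1 gene, filled where the limma adjusted p is under 0.05, and bars are medians. No point is filled in RPGCs, and in neurons the targets have a median of −1.41 and the nuclear cofactors 1.03.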

How the data were processed

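Reads were aligned with TopHat2 2.0.9, per the submitters' processing notes. For the counting program, the build and the annotation the sources used here give nothing. FPKM are in the deposited table, per the file headers, as the authors' level per transcript length and library size. Its other columns are called counts, per the file headers, but the deposited values are not whole: they are a signal that steps by 1 constant in each library, and no header or label records that scaling. Divided by this constant, the values lay within 0.1 of a whole read for 100% of values in 4 libraries and 99.9941% in P36 NESCs.

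Genes with at least 20 reads in at least 1 library (12212) were tested with limma 3.58.1 (R 4.3.3, trend form, two-sided) on log2(FPKM + 1), with Benjamini-Hochberg adjustment over all of them and a threshold of 0.05. RPGCs, neurons and NESCs were 3 groups of 1 model (2 residual degrees of freedom). P5 was set apart in another model (1 degree). Lone libraries were assumed to vary like NESCs. Values after ± beside a log2 difference are limma standard errors. The edgeR 4.0.16 quasi-likelihood test and DESeq2 1.42.0 were run on recovered reads as alternatives. Intervals on read ratios are exact binomial ones.

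For each of the 5 genes the 5 genes of most like profile were chosen too, and 1 of them and 1 marker sum are not reported here. The 5 genes, the lists and the alternatives were chosen with earlier results of these data known. In each list the genes past the threshold were named (with over 6, the 3 largest each way; with none, up to 3 largest differences), and AXIN2, DVL2, GSK3B, SP5, MSX1, CDH2, CTNNBIP1 and TLE2 were added after their values were seen.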

Additional observations from a re-analysis of the deposited data

How the results depend on the processing

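LEF1 kept its direction in RPGCs and neurons under every alternative tried, from −7.13 to −2.16 and from −7.77 to −2.17 on the log2 scale (the smallest with a pseudocount of 5), and it passed in neurons under all 18 (adjusted p at most 0.0350). Of the 5 genes, the number called in RPGCs went from 0 to 2 with DESeq2, and stayed at 0 otherwise. Leaving out 1 NESC library gave 1 to 3 called in neurons against NESCs and 0 to 3 in neurons against RPGCs, the lowest in each case without P24. TCF7L2 did not pass in either neuron comparison with no filter, or with filters of 1 or 5 FPKM. TCF7 missed in neurons against RPGCs with DESeq2 (adjusted p = 0.0583). The causes were not tested. Of all genes, neurons against RPGCs had 1850 called, 0 without P24, and 1101 and 1011 with filters of 1 and 5 FPKM, and neurons against NESCs had 4849 called and 2172 without P24. RPGCs had 0 called, but 296 with no filter, 106 with a filter of 1 FPKM and 55 with 5 FPKM. The CTNNB1 difference between neurons and NESCs ranged from −0.17 to 0.11 with 1 NESC library left out, and turned to 0.074 (edgeR, TMM), 0.10 (DESeq2, and edgeR with RLE), 0.030 (median-of-ratios), 0.29 (quantile), 0.11 (without P24) and 0.0020 (without P36). The TCF7 difference at P5 turned to −0.079 (edgeR, TMM), −0.066 (DESeq2) and −0.061 (edgeR, RLE). Measured in reads rather than FPKM, the LEF1 share of the 4 factors was 30.8% to 38.6% in NESCs and 0.172% in RPGCs (exact 95% interval 0.0208% to 0.620%), and the TCF7L1 share 54.2% in RPGCs. No paired analysis was possible because RPGCs and neurons have 1 library each. Leaving out a NESC library from the P5 comparison, or fitting neurons and RPGCs alone, leaves no residual degree of freedom. With at most 2 reads of LEF1 outside NESCs, depth limits its ratios to the intervals given.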
